A study of Elodea nuttallii and Chlamydomonas reinhardtii with 18 samples.

Results

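Heat shock proteins and chaperones of the waterweed Elodea nuttallii, a rooted submerged freshwater plant, are described here at 3 places on the River Olt. The members are assembled transcripts whose description in at least 1 of the authors' deposited tables of site comparisons names a heat shock protein, a chaperone, a chaperonin, DnaJ or HSP, leaving out transcription factors. There were 105 such transcripts over 53 loci, of 58110 Elodea transcripts measured and 4728 that those tables describe. The tables list only transcripts that passed the authors' thresholds in a comparison, so the differences between sites chose the members, and all differences given for them are a description with no test. A transcript name gives a locus number and then the transcript's own number within that locus.

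Plants were exposed at Babeni site 2 and at Babeni site 1, each giving 3 libraries, and at Valcea, which gave 3 libraries and is used as the control. The algal libraries of the same study name Valcea as control. Every library came from the upper 10 cm of shoots with the apex, from plants taken at a clean place and held in the river for 2 h. The study's title names mercury as the toxicant, while the labels used here give no mercury level for any site. Nothing in the labels states that the libraries within a site are separate plants, so the spread between them may be technical. Site, day and water conditions cannot be told apart in this design.

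Molecular chaperones bind proteins that are unfolded or newly made, keep them from clumping and help them to fold. HSP70 proteins grip exposed stretches of a client in cycles driven by ATP, DnaJ proteins (also called HSP40) bring clients to HSP70 and set off its ATP hydrolysis, and HSP90 proteins finish the folding of signalling proteins with the help of co-chaperones. Small heat shock proteins hold unfolded proteins without ATP, chaperonins enclose them in a barrel, and plants keep separate sets of these families in the cytosol, chloroplast, mitochondrion and endoplasmic reticulum. Many of their genes are known to be induced by heat, and others are expressed at all times.

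Reads recovered from the deposited values numbered 6932366 to 7824727 per Babeni site 2 library, 4578385 to 4985937 per Babeni site 1 library and 2875062 to 4875382 per Valcea library. A count of 3 reads was worth 0.351 to 0.433 CPM in Babeni site 2 libraries, 0.572 to 0.645 CPM in those of Babeni site 1 and 0.564 to 1.19 CPM in those of Valcea, so members under about 1 CPM rest on few reads. Replicate 3 at Valcea stood apart from the other Valcea libraries, with a chi-square per transcript of 7.18 and 7.66 against them, where the other pairs within a site gave 1.72 to 4.45. All transcript lists fixed as shoot markers were detected. These lists, and the one for other organisms, were matched by description, so they hold only transcripts of the authors' tables. Those tables list differences between sites, so neither the detection nor the differing sums of these lists is a test of tissue content. The summed level of 5 rubisco small chain transcripts was 1544 to 2064 CPM in Babeni site 2 libraries, 2195 to 2852 CPM in those of Babeni site 1 and 5127 to 6563 CPM in those of Valcea. The 32 photosystem transcripts summed to 2069.7 to 2845 CPM in Babeni site 2 libraries, 3842 to 4063 CPM in those of Babeni site 1 and 8383 to 11488 CPM in those of Valcea. In both sums every Babeni library lay below every Valcea library. The 42 chlorophyll a/b binding transcripts summed to 1771 to 2055 CPM in Babeni site 2 libraries, 3752 to 4505 CPM in those of Babeni site 1 and 2043 to 2858 CPM in those of Valcea. The 5 transcripts matched by words for other organisms summed to 20.9 to 24.9 CPM in Babeni site 2 libraries, 25.1 to 32.9 CPM in those of Babeni site 1 and 27.4 to 31.4 CPM in those of Valcea. The part of these differences in the chaperone values was not tested. In whole shoots, fewer cells of a type and less RNA per cell cannot be told apart.

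Most of the members, all of them listed for a site difference, had lower means at the Babeni sites than at Valcea, and a smaller set had higher means. The differences were largest at Babeni site 2. The summed level of all 105 members was 1797 ± 77.5 CPM at Babeni site 2, 2632 ± 103 CPM at Babeni site 1 and 4577 ± 209 CPM at Valcea (SD, n = 3 each), so that Babeni site 2 had 0.393 and Babeni site 1 0.575 of the Valcea sum. The libraries of Babeni site 2 and Valcea did not overlap for 77 members that were lower and 25 that were higher, and overlapped for 3. Of all tested transcripts 17.5% were lower and 18.4% higher without overlap, and of the tested transcripts that the authors' tables describe, which were listed for such differences as the members were, 45.8% and 39.2%. A member was called when limma gave a Benjamini-Hochberg adjusted p under 0.05 over all 56752 transcripts tested and the difference was at least 2-fold. By that call 63 members were lower and 23 higher at Babeni site 2 than at Valcea, where 6.09% and 6% of all tested transcripts were called in those directions. At Babeni site 1 against Valcea 30 members were lower and 6 higher, with 4.9% and 4.17% of all tested transcripts. Babeni site 2 against Babeni site 1 had 20 lower and 5 higher, with 1.63% and 1.55% of all tested transcripts. Since every member had to be listed in one of these comparisons, the described transcripts of the same tables are the nearer background, and of them 32.1% were lower and 27% higher at Babeni site 2 than at Valcea, 24.8% lower and 20.7% higher at Babeni site 1 than at Valcea, and 8.62% lower and 5.38% higher at Babeni site 2 than at Babeni site 1. Among the members these shares were 60% lower and 21.9% higher, then 28.6% and 5.71%, then 19% and 4.76%, in the same order. The lower share of members at Babeni site 1 against Valcea was thus near that of the described transcripts. The first and second of these comparisons share the Valcea libraries.

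The median log2(CPM + 0.5) difference over the members was -1.08 between Babeni site 2 and Valcea, where the described transcripts had a median of -0.41 and all tested transcripts one of 0.05. Between Babeni site 1 and Valcea the members' median was -0.70, that of the described transcripts -0.18 and that of all tested transcripts 0.03. Between Babeni site 2 and Babeni site 1 these medians were -0.36, -0.06 and 0.02. By their means, 65 members (61.9%) had the order Valcea, Babeni site 1, Babeni site 2 from high to low, an order that 31.4% of the described and 19.8% of all tested transcripts had. The opposite order, highest at Babeni site 2, held for 21 members (20%), for 26.1% of the described and for 22.3% of all tested transcripts. All 12 HSP90 and all 3 small HSP members had their highest mean at Valcea, as did 21 of 29 HSP70 and 22 of 29 DnaJ members. Leaving out each library in turn kept 61 of the 86 calls of Babeni site 2 against Valcea in every case, 21 of the 36 of Babeni site 1 against Valcea and 22 of the 25 between the Babeni sites. In both directions together, 12.1%, 9.08% and 3.18% of all tested transcripts were called in these comparisons. Without Babeni site 1 replicate 2 the 5 members called higher at Babeni site 2 than at Babeni site 1 became 9.

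Among the HSP70 members, Locus_1034 was far lower at Babeni site 2 and intermediate at Babeni site 1. It held 11 members, described as heat shock protein 70 or as heat shock cognate 70 kDa protein, the kind that in plants works mainly in the cytosol and nucleus. Locus_1034_Transcript_35_36_ had 113, 102 and 115 CPM in the Babeni site 2 libraries, 523, 606 and 585 CPM in those of Babeni site 1 and 1082, 1098 and 914 CPM in those of Valcea. This was the most abundant member at Valcea, and its 3 sites did not overlap. Its log2 difference was -3.22 (SE 0.12) between Babeni site 2 and Valcea and -0.85 (SE 0.12) between Babeni site 1 and Valcea.

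The other Locus_1034 members followed the same order at lower levels. Locus_1034_Transcript_33_36_ had 7.49, 8.14 and 11.4 CPM in the Babeni site 2 libraries, 81.4, 87.4 and 96.5 CPM in those of Babeni site 1 and 163, 144 and 125 CPM in those of Valcea. Locus_1034_Transcript_31_36_ had 7.6, 7.89 and 8.23 CPM in the Babeni site 2 libraries, 74.3, 87.8 and 78.9 CPM in those of Babeni site 1 and 125, 142 and 131 CPM in those of Valcea. Locus_1034_Transcript_27_36_ had 4.68, 5.13 and 4.76 CPM in the Babeni site 2 libraries, 37.3, 43.9 and 41.3 CPM in those of Babeni site 1 and 95.3, 96.8 and 84.3 CPM in those of Valcea. The libraries of the 3 sites did not overlap for any of these, and on the log2 scale the gap between the Babeni sites was wider than that between Babeni site 1 and Valcea.

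Further members of the locus had the same shape. Locus_1034_Transcript_30_36_ had 2.69, 1.88 and 1.73 CPM in the Babeni site 2 libraries, 19, 21.6 and 17.8 CPM in those of Babeni site 1 and 53.6, 41.2 and 39.1 CPM in those of Valcea. Locus_1034_Transcript_29_36_ had 1.05, 1.88 and 1.44 CPM in the Babeni site 2 libraries, 16.9, 23.3 and 21.3 CPM in those of Babeni site 1 and 35.3, 36 and 35.9 CPM in those of Valcea. Locus_1034_Transcript_18_36_ had 4.33, 4.13 and 3.03 CPM in the Babeni site 2 libraries, 38.9, 41 and 44.1 CPM in those of Babeni site 1 and 66.7, 72.4 and 63.8 CPM in those of Valcea. In each, every Babeni site 2 library stood below 5 CPM while every Valcea library stood above 35 CPM. The short Locus_1034_Transcript_25_36_ had 2.22, 1.88 and 3.32 CPM in the Babeni site 2 libraries, 19.9, 27.1 and 24.3 CPM in those of Babeni site 1 and 44.1, 44 and 39.5 CPM in those of Valcea. The log2 difference between Babeni site 2 and Valcea was -4.23 (SE 0.19) for Locus_1034_Transcript_29_36_, the largest decrease of all members in that comparison. It was -4.12 (SE 0.19) for Locus_1034_Transcript_30_36_ and -4.11 (SE 0.14) for Locus_1034_Transcript_27_36_. Between Babeni site 2 and Babeni site 1 it was -3.43 (SE 0.19) for Locus_1034_Transcript_29_36_, -3.28 (SE 0.15) for Locus_1034_Transcript_18_36_ and -3.26 (SE 0.13) for Locus_1034_Transcript_31_36_. All 11 had log2 differences of -4.23 to -2.86 between Babeni site 2 and Valcea.

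**Figure D1:**
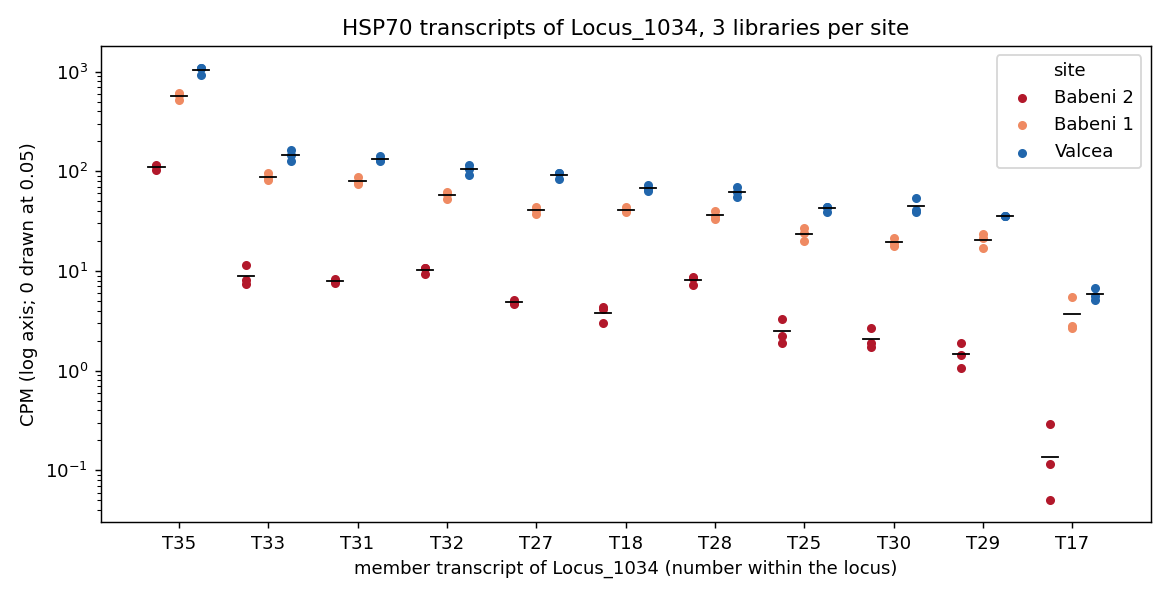
CPM (log axis, a value of 0 drawn at 0.05) of the 11 HSP70 member transcripts of Locus_1034, with points for the 3 libraries of each site and a line at the mean. Babeni site 2 lies lowest and Valcea highest by mean in all 11, and their libraries do not overlap in any of them.

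Summed over its 11 members, Locus_1034 had 160.3 ± 8.54 CPM at Babeni site 2, 984 ± 69.7 CPM at Babeni site 1 and 1764 ± 149 CPM at Valcea (SD, n = 3 each). That was 0.0909 of the Valcea sum at Babeni site 2 and 0.558 at Babeni site 1. The locus made up 8.92% ± 0.278 of the CPM of all members at Babeni site 2, 37.3% ± 1.22 at Babeni site 1 and 38.5% ± 1.6 at Valcea. Without it, the members summed to 1637 ± 70.8 CPM at Babeni site 2, 1648 ± 34.4 CPM at Babeni site 1 and 2813 ± 68.8 CPM at Valcea. The Babeni libraries then overlapped, at 1559 to 1696 CPM for site 2 and 1616 to 1685 CPM for site 1, below the 2749 to 2886 CPM of Valcea. The 7 Locus_1034 transcripts that are no members summed to 70, 83.2 and 59.6 CPM in the Babeni site 2 libraries, 70.1, 62.6 and 62.1 CPM in those of Babeni site 1 and 89, 92 and 92.6 CPM in those of Valcea. Of these 7, 6 were listed for no site difference. A smaller gap than that of the members therefore follows in part from the choice of members.

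HSP70 members of the chloroplast stroma, which help to import and fold chloroplast proteins, were lower at both Babeni sites than at Valcea. Locus_1815_Transcript_11_12_ had 120.02, 97.9 and 107 CPM in the Babeni site 2 libraries, 99.96, 117 and 116 CPM in those of Babeni site 1 and 213, 227 and 231 CPM in those of Valcea. The Babeni sites overlapped and both lay below Valcea, with log2 differences of -1.05 (SE 0.12) and -1.01 (SE 0.12). The minor Locus_1815_Transcript_3_12_ had 1.75, 2.13 and 1.3 CPM in the Babeni site 2 libraries, 2.3, 1.53 and 1.29 CPM in those of Babeni site 1 and 5.56, 6.63 and 4.89 CPM in those of Valcea. Locus_1829_Transcript_2_4_ had 9.59, 11.5 and 9.1 CPM in the Babeni site 2 libraries, 19.5, 22.5 and 20.2 CPM in those of Babeni site 1 and 52, 55.8 and 46.5 CPM in those of Valcea. Locus_1829_Transcript_3_4_ had 8.89, 6.38 and 7.51 CPM in the Babeni site 2 libraries, 9.0, 10.9 and 10.5 CPM in those of Babeni site 1 and 29.4, 34.5 and 30.5 CPM in those of Valcea. For both transcripts of Locus_1829 the libraries of the 3 sites did not overlap, with Babeni site 2 lowest and Valcea highest. Their log2 differences between Babeni site 1 and Valcea were -1.29 (SE 0.15) and -1.59 (SE 0.17).

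Other HSP70 transcripts were scarcer. Locus_10258_Transcript_3_4_ had 2.92, 3.76 and 4.04 CPM in the Babeni site 2 libraries, 4.21, 5.34 and 5.16 CPM in those of Babeni site 1 and 7.15, 7.34 and 7.53 CPM in those of Valcea. Locus_762_Transcript_4_11_ had 9.59, 7.51 and 6.06 CPM in the Babeni site 2 libraries, 9.0, 13 and 15 CPM in those of Babeni site 1 and 14.7, 18 and 15.2 CPM in those of Valcea. Both were lower at Babeni site 2 than at Valcea with no overlap. Locus_11562_Transcript_1_1_ had 1.75, 2.88 and 0.433 CPM in the Babeni site 2 libraries, 0.957, 1.53 and 1.5 CPM in those of Babeni site 1 and 1.19, 1.66 and 18.1 CPM in those of Valcea. The Valcea mean of the last rests on replicate 3 alone, since its other Valcea libraries lie within the range of the Babeni libraries. The member of Locus_105 was near the limit of detection at the Babeni sites.

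Higher at Babeni were HSP70 members of other loci. Locus_12345_Transcript_1_1_ had 162, 157 and 137 CPM in the Babeni site 2 libraries, 84.3, 96 and 80.6 CPM in those of Babeni site 1 and 50.4, 39.8 and 62.1 CPM in those of Valcea. It is described as 70 kDa heat shock protein 17-like, a kind that in Arabidopsis belongs to the HSP70 relatives of the endoplasmic reticulum. Its 3 sites did not overlap, and its log2 difference was 1.59 (SE 0.15) between Babeni site 2 and Valcea and 0.79 (SE 0.15) between Babeni site 1 and Valcea. Both members of Locus_489, with the same description, summed to 4.39 ± 0.119 CPM at Babeni site 2, 2.32 ± 0.701 CPM at Babeni site 1 and 1.05 ± 0.88 CPM at Valcea. Locus_3482_Transcript_4_5_ had 7.95, 7.64 and 10.3 CPM in the Babeni site 2 libraries, 7.85, 7.06 and 7.31 CPM in those of Babeni site 1 and 3.97, 3.31 and 4.52 CPM in those of Valcea. Every Babeni library of this cognate 70 kDa transcript lay above every Valcea library. The members of Locus_227, Locus_1062 and Locus_15225 were also higher at both Babeni sites by mean, at under 5 CPM in each library.

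Of the 29 HSP70 members, 19 were called lower and 6 higher at Babeni site 2 than at Valcea, and 9 lower and 1 higher at Babeni site 1 than at Valcea. At Babeni site 2 that was 65.5% lower and 20.7% higher, beside 32.1% and 27% of the described transcripts. At Babeni site 1 it was 31% and 3.45%, beside 24.8% and 20.7%. Counted by transcripts, the share called higher was thus below that of the described transcripts at both sites. Counted by locus the split was more even. The 9 lower calls at Babeni site 1 came from 4 of the 13 HSP70 loci, and the 1 higher call from 1. The 19 lower calls at Babeni site 2 came from 5 loci, and the 6 higher ones also from 5. The 6 higher calls became 3 without Babeni site 2 replicate 3 and 3 without Valcea replicate 2. Between the Babeni sites 12 were called lower at site 2, 11 of them the Locus_1034 members, where 8.62% of the described transcripts were called lower. Without Locus_1034 the other 18 members summed to 327 ± 22.1 CPM at Babeni site 2, 285 ± 20.3 CPM at Babeni site 1 and 444 ± 24.9 CPM at Valcea.

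HSP90 members all had lower means at both Babeni sites than at Valcea. Locus_1830 held 6 members, 5 described as heat shock cognate protein 80-like and 1 as heat shock protein only, which was placed with HSP90 by its locus. Locus_1830_Transcript_10_11_ had 197, 133 and 170.2 CPM in the Babeni site 2 libraries, 263, 246 and 247 CPM in those of Babeni site 1 and 658, 730.5 and 611 CPM in those of Valcea. Locus_1830_Transcript_9_11_ had 26.3, 18.8 and 25.8 CPM in the Babeni site 2 libraries, 44.4, 40.1 and 46.9 CPM in those of Babeni site 1 and 164, 137 and 107 CPM in those of Valcea. In both, the 3 sites did not overlap and the wider gap lay between Babeni site 1 and Valcea. Their log2 differences between Babeni site 1 and Valcea were -1.40 (SE 0.14) and -1.61 (SE 0.17), and between Babeni site 2 and Valcea -2.01 (SE 0.14) and -2.50 (SE 0.17). The 6 members summed to 207 ± 36.8 CPM at Babeni site 2, 322 ± 9.76 CPM at Babeni site 1 and 860.3 ± 83.1 CPM at Valcea (SD, n = 3 each). This pattern differs in shape from that of Locus_1034: the Babeni site 2 sum was 0.642 of the Babeni site 1 sum here and 0.163 there.

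The other HSP90 loci had lower levels. Locus_14733_Transcript_4_5_ had 23.5, 14.3 and 15.9 CPM in the Babeni site 2 libraries, 22.6, 21 and 24.7 CPM in those of Babeni site 1 and 34.2, 38.6 and 36.3 CPM in those of Valcea. Locus_810_Transcript_10_11_ had 8.77, 8.51 and 4.76 CPM in the Babeni site 2 libraries, 12.6, 12.6 and 12 CPM in those of Babeni site 1 and 19.1, 19.2 and 20.1 CPM in those of Valcea. At both, all Valcea libraries lay above all Babeni libraries. Over the 12 HSP90 members, log2 differences ran from -2.50 to -0.92 between Babeni site 2 and Valcea and from -1.61 to -0.57 between Babeni site 1 and Valcea. Of these, 11 were called lower at Babeni site 2 and 5 at Babeni site 1, and that count of 5 became 3 without Babeni site 1 replicate 1. All 5 were members of Locus_1830. The 11 became 8 to 12 when 1 library was left out. Of the described transcripts 32.1% were called lower at Babeni site 2 and 24.8% at Babeni site 1. Between the Babeni sites the log2 differences ran from -0.97 to -0.11.

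Small heat shock proteins, which in plants are among the transcripts most sharply induced by heat, were represented by 3 members. Locus_2984_Transcript_1_1_ had 22, 24.3 and 29 CPM in the Babeni site 2 libraries, 27, 30 and 31.8 CPM in those of Babeni site 1 and 65.1, 52.1 and 44 CPM in those of Valcea. This class I member lay lower in every Babeni library than in any Valcea library, with log2 differences of -1.07 (SE 0.16) at Babeni site 2 and -0.83 (SE 0.16) at Babeni site 1. The class III members of Locus_13103, a class known in Arabidopsis from the nucleus, summed to 0.585, 1.0 and 0.866 CPM in the Babeni site 2 libraries, 2.11, 2.67 and 1.29 CPM in those of Babeni site 1 and 11.5, 7.57 and 5.46 CPM in those of Valcea. All Babeni site 2 libraries lay below all Babeni site 1 libraries, and these below Valcea. The fold on this scale understates differences at such low levels.

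DnaJ members split into a larger set that was lower and a smaller one that was higher at Babeni site 2. Among the lower ones, Locus_733 carried the highest levels. Locus_733_Transcript_12_15_ had 86.7, 67.1 and 86.5 CPM in the Babeni site 2 libraries, 118, 104 and 106 CPM in those of Babeni site 1 and 171, 184 and 152 CPM in those of Valcea. The 3 sites did not overlap, with log2 differences of -1.08 (SE 0.13) at Babeni site 2 and -0.62 (SE 0.13) at Babeni site 1. Its 7 members, described as DnaJ protein homolog, summed to 105 ± 11 CPM at Babeni site 2, 152 ± 8.7 CPM at Babeni site 1 and 232 ± 22 CPM at Valcea. The mitochondrial-like Locus_480_Transcript_3_4_ had 26.2, 22 and 25.3 CPM in the Babeni site 2 libraries, 32.6, 27.9 and 29.9 CPM in those of Babeni site 1 and 63.9, 80 and 70.2 CPM in those of Valcea. Locus_1003_Transcript_6_8_ had 3.04, 2.63 and 2.6 CPM in the Babeni site 2 libraries, 5.36, 4.77 and 1.72 CPM in those of Babeni site 1 and 5.96, 5.92 and 6.58 CPM in those of Valcea. Both had all Babeni libraries below all Valcea libraries.

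Several DnaJ transcripts had their lowest level at Babeni site 2 and a level nearer to Valcea at Babeni site 1. Locus_2019_Transcript_2_3_ had 0.351, 0.501 and 0.433 CPM in the Babeni site 2 libraries, 5.74, 6.68 and 7.31 CPM in those of Babeni site 1 and 11.5, 9.23 and 8.09 CPM in those of Valcea. Locus_15568_Transcript_1_2_ had 1.05, 0.626 and 1.59 CPM in the Babeni site 2 libraries, 6.89, 5.72 and 9.24 CPM in those of Babeni site 1 and 13.5, 12.8 and 12.6 CPM in those of Valcea. Locus_351_Transcript_2_2_ had 3.16, 2.0 and 2.17 CPM in the Babeni site 2 libraries, 6.51, 8.4 and 6.23 CPM in those of Babeni site 1 and 7.15, 9.23 and 11.5 CPM in those of Valcea. In these the Babeni site 2 libraries lay below all others. Locus_5873_Transcript_7_8_ had 1.05, 1.0 and 1.59 CPM in the Babeni site 2 libraries, 4.21, 4.2 and 3.44 CPM in those of Babeni site 1 and 5.56, 8.28 and 4.89 CPM in those of Valcea. Locus_8274_Transcript_2_2_ had 1.05, 1.63 and 3.32 CPM in the Babeni site 2 libraries, 5.94, 5.72 and 3.22 CPM in those of Babeni site 1 and 5.56, 5.92 and 4.7 CPM in those of Valcea. The Babeni sites did not overlap for Locus_5873 and overlapped slightly for Locus_8274. Their log2 differences between Babeni site 2 and Babeni site 1 were -2.93 (SE 0.24) for Locus_2019, -2.31 (SE 0.25) for Locus_15568, -1.37 (SE 0.24) for Locus_351, -1.39 (SE 0.26) for Locus_5873 and -1.19 (SE 0.32) for Locus_8274. At Babeni site 2 the value of Locus_2019 was at about 3 reads per library.

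Other DnaJ transcripts were low at both Babeni sites. Locus_2262_Transcript_1_4_ had 3.51, 6.63 and 6.06 CPM in the Babeni site 2 libraries, 6.89, 7.06 and 5.37 CPM in those of Babeni site 1 and 15.9, 13.7 and 10.7 CPM in those of Valcea. Its Babeni sites overlapped and lay below Valcea. Locus_3575_Transcript_5_6_ had 14, 12.1 and 15 CPM in the Babeni site 2 libraries, 10.3, 11.6 and 10.5 CPM in those of Babeni site 1 and 23.8, 22.2 and 24.5 CPM in those of Valcea. Locus_3575_Transcript_3_6_ had 5.61, 6.51 and 4.62 CPM in the Babeni site 2 libraries, 1.72, 4.2 and 3.01 CPM in those of Babeni site 1 and 7.94, 10.6 and 9.22 CPM in those of Valcea. Locus_3575_Transcript_4_6_ had 4.68, 5.63 and 3.9 CPM in the Babeni site 2 libraries, 1.53, 3.43 and 2.36 CPM in those of Babeni site 1 and 5.96, 8.99 and 9.41 CPM in those of Valcea. In Locus_3575 the mean was lowest at Babeni site 1, unlike the order of most members. The log2 differences between Babeni site 1 and Valcea were -1.08 (SE 0.15), -1.55 (SE 0.26) and -1.58 (SE 0.27) for these 3 transcripts, and between Babeni site 2 and Valcea -0.76 (SE 0.15), -0.69 (SE 0.26) and -0.71 (SE 0.27).

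Higher at Babeni site 2 were DnaJ transcripts described as chloroplastic. Locus_11518_Transcript_1_1_ had 150.4, 154 and 163 CPM in the Babeni site 2 libraries, 56.3, 53.4 and 51.6 CPM in those of Babeni site 1 and 70.7, 50.4 and 38.4 CPM in those of Valcea. Locus_6234_Transcript_1_1_ had 95.2, 96.6 and 96.2 CPM in the Babeni site 2 libraries, 40.6, 35.7 and 41.5 CPM in those of Babeni site 1 and 37.7, 29.6 and 30.9 CPM in those of Valcea. Locus_19139_Transcript_3_3_ had 35.2, 39.9 and 45.9 CPM in the Babeni site 2 libraries, 18.4, 12.4 and 16.6 CPM in those of Babeni site 1 and 13.5, 12.1 and 9.59 CPM in those of Valcea. In all 3 every Babeni site 2 library lay above every other library, and the log2 differences between Babeni site 2 and Babeni site 1 were 1.53 (SE 0.17), 1.28 (SE 0.13) and 1.34 (SE 0.18). Between Babeni site 1 and Valcea the libraries overlapped in all 3, and the log2 differences were 0.06 (SE 0.17), 0.26 (SE 0.13) and 0.41 (SE 0.18). These are short transcripts of 578, 525 and 558 bases. Per length, Locus_11518_Transcript_1_1_ was the most abundant member at Babeni site 2, at 269 CPM per kb, where Locus_1034_Transcript_35_36_ led at Babeni site 1 with 243 CPM per kb and at Valcea with 438 CPM per kb. Of the 29 DnaJ members, 19 (65.5%) were called lower and 5 (17.2%) higher at Babeni site 2 than at Valcea, and 6 (20.7%) lower and 5 (17.2%) higher than at Babeni site 1. Of the described transcripts these shares were 32.1% and 27%, and 8.62% and 5.38%. Leaving out any 1 library turned the 19 into 14 to 17. Between the Babeni sites it gave 5 to 7 lower and 5 to 7 higher.

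The sum of the 29 DnaJ members hides these opposite movements. It was 481 ± 20.8 CPM at Babeni site 2, 364 ± 15.5 CPM at Babeni site 1 and 535 ± 41.9 CPM at Valcea, which is 0.90 of Valcea at Babeni site 2, against 0.221 for the 29 HSP70 members and 0.258 for the 12 HSP90 members. These ratios cover only members, which were listed for site differences. They leave out the other transcripts of the same loci and are not levels of whole families.

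**Figure D2:**
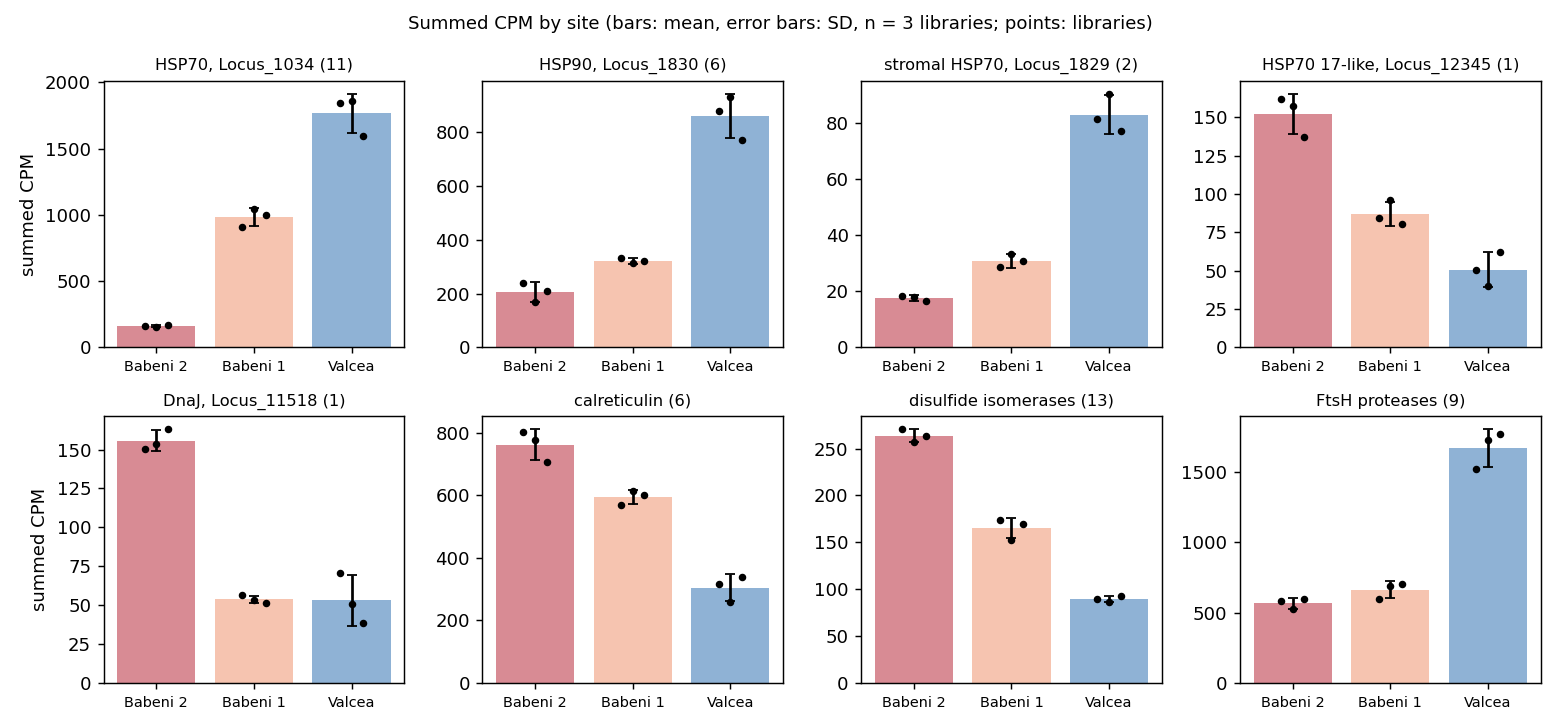
Summed CPM by site for 5 chaperone groups and 3 neighbouring lists, with the number of transcripts in brackets. Bars are means, error bars SDs over 3 libraries, and points the libraries. HSP70 of Locus_1034, HSP90 of Locus_1830, stromal HSP70 of Locus_1829 and FtsH proteases are lowest at Babeni site 2 by mean, while HSP70 17-like, DnaJ of Locus_11518, calreticulin and disulfide isomerases are highest there.

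Chaperonins differed by member. Locus_15343_Transcript_1_1_ had 24.7, 21.7 and 19.9 CPM in the Babeni site 2 libraries, 9.57, 19.3 and 8.81 CPM in those of Babeni site 1 and 5.96, 6.63 and 10.5 CPM in those of Valcea. This mitochondrial-like cpn60, a subunit of the barrel that folds proteins of the matrix, was higher at Babeni site 2 than at Valcea with a log2 difference of 1.5 (SE 0.26) and no overlap. The other chaperonin members, of Locus_10961 and Locus_1222, had means of at most 2.44 CPM at every site and were highest at Valcea.

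Co-chaperones were all highest at Valcea. Locus_4449_Transcript_5_9_ had 1.64, 1.88 and 1.3 CPM in the Babeni site 2 libraries, 3.83, 5.15 and 4.51 CPM in those of Babeni site 1 and 10.7, 7.81 and 6.58 CPM in those of Valcea. It is described as an activator of the HSP90 ATPase, and its 3 sites did not overlap. Locus_14278_Transcript_1_2_ had 2.57, 2.25 and 1.88 CPM in the Babeni site 2 libraries, 2.68, 1.91 and 2.36 CPM in those of Babeni site 1 and 4.77, 5.21 and 6.21 CPM in those of Valcea. Locus_1630_Transcript_1_2_ had 5.61, 6.01 and 5.2 CPM in the Babeni site 2 libraries, 4.6, 5.15 and 4.51 CPM in those of Babeni site 1 and 8.74, 13.3 and 7.53 CPM in those of Valcea. Locus_14278 is described as a BAG family regulator, of a family known to exchange the nucleotide of HSP70, and its Babeni sites overlapped and lay below Valcea. For the co-chaperone family member of Locus_1630 every Babeni library lay below every Valcea library. The STI-like member of Locus_3875, of the family that links HSP70 to HSP90, and the chaperone activator of Locus_2743 had means of at most 4.6 CPM. Of the 5 co-chaperones, 4 were called lower at Babeni site 2 than at Valcea, where 32.1% of the described transcripts were called lower.

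Transcripts of 1 locus moved in opposite directions for BCS1, a mitochondrial AAA protein that in yeast inserts a subunit into respiratory complex III. All 8 members came from Locus_421. Locus_421_Transcript_24_25_ had 49.8, 45.7 and 53.1 CPM in the Babeni site 2 libraries, 30.6, 28.6 and 25.8 CPM in those of Babeni site 1 and 15.9, 16.3 and 10.3 CPM in those of Valcea. Locus_421_Transcript_23_25_ had 32.4, 27.8 and 37.8 CPM in the Babeni site 2 libraries, 15.5, 17.4 and 15.9 CPM in those of Babeni site 1 and 7.55, 4.02 and 6.96 CPM in those of Valcea. Locus_421_Transcript_22_25_ had 9.36, 8.64 and 13.1 CPM in the Babeni site 2 libraries, 9.57, 7.25 and 9.67 CPM in those of Babeni site 1 and 3.18, 1.89 and 1.32 CPM in those of Valcea. By mean these were highest at Babeni site 2 and lowest at Valcea, and no Babeni library overlapped with Valcea. Locus_421_Transcript_16_25_ had 13.7, 13.3 and 15.7 CPM in the Babeni site 2 libraries, 34.9, 27.1 and 26 CPM in those of Babeni site 1 and 4.37, 6.86 and 5.83 CPM in those of Valcea. This transcript was highest at Babeni site 1, with a log2 difference of 2.28 (SE 0.19) there and 1.27 (SE 0.19) at Babeni site 2. The most abundant transcript went the other way. Locus_421_Transcript_18_25_ had 38.7, 34.8 and 41.6 CPM in the Babeni site 2 libraries, 65.9, 57.6 and 68.8 CPM in those of Babeni site 1 and 100.1, 88.3 and 70.7 CPM in those of Valcea. Its log2 difference was -1.15 (SE 0.14) between Babeni site 2 and Valcea.

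The 5 BCS1 transcripts that were higher at both Babeni sites summed to 109.9 ± 12.9 CPM at Babeni site 2, 85.5 ± 7.44 CPM at Babeni site 1 and 29.2 ± 3.64 CPM at Valcea. The pair called lower at Babeni site 2 summed to 54.4 ± 3.19 CPM at Babeni site 2, 89.3 ± 7.43 CPM at Babeni site 1 and 122 ± 16.9 CPM at Valcea. These groupings follow the differences themselves. Over its 21 measured transcripts the locus had 192, 177 and 212 CPM in the Babeni site 2 libraries, 234, 215 and 226 CPM in those of Babeni site 1 and 204, 192 and 161 CPM in those of Valcea, with log2 differences of 0.06 (SE 0.12) at Babeni site 2 and 0.28 (SE 0.12) at Babeni site 1. How reads were shared among transcripts of a locus is not given in the sources used here, so the value of a single transcript is less certain than that of its locus.

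**Figure D3:**
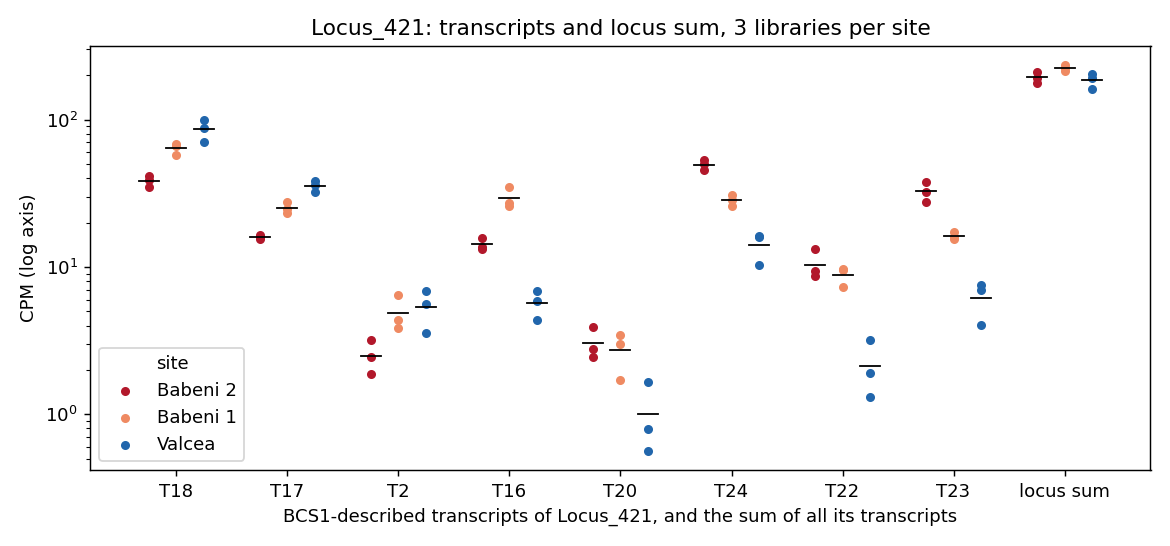
CPM (log axis) of the 8 BCS1 member transcripts of Locus_421 and the sum over all 21 measured transcripts of the locus, with points for the 3 libraries of each site and a line at the mean. Transcripts on the left are lower and those on the right higher at Babeni site 2 than at Valcea, while the locus sums lie between 161 and 234 CPM.

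The remaining members were of mixed kinds. Locus_709_Transcript_8_10_ had 229.5, 220.2 and 218 CPM in the Babeni site 2 libraries, 225, 288 and 257 CPM in those of Babeni site 1 and 403, 431 and 525 CPM in those of Valcea. This is described as a chloroplastic-like chaperone, and its annotation carries a peptidase term. Its Babeni sites overlapped and lay below Valcea, and the 5 members of its locus summed to 267 ± 5.31 CPM at Babeni site 2, 308 ± 39.9 CPM at Babeni site 1 and 554 ± 72.9 CPM at Valcea. Locus_9338_Transcript_11_12_ had 17.9, 19.4 and 17.3 CPM in the Babeni site 2 libraries, 9.57, 12.8 and 9.24 CPM in those of Babeni site 1 and 4.77, 6.15 and 8.28 CPM in those of Valcea. Locus_16183_Transcript_2_2_ had 26.1, 33.3 and 32.1 CPM in the Babeni site 2 libraries, 20.5, 20.6 and 21.5 CPM in those of Babeni site 1 and 16.3, 12.3 and 11.1 CPM in those of Valcea. Both, described as a heat shock protein isoform and as a heat shock protein binding protein, had every Babeni library above every Valcea library. Locus_11885_Transcript_3_5_ had 5.38, 6.88 and 5.05 CPM in the Babeni site 2 libraries, 6.51, 5.34 and 9.24 CPM in those of Babeni site 1 and 8.34, 8.99 and 16.6 CPM in those of Valcea. Locus_7518_Transcript_1_1_ had 8.54, 6.13 and 8.23 CPM in the Babeni site 2 libraries, 4.98, 6.87 and 5.37 CPM in those of Babeni site 1 and 4.77, 3.55 and 2.45 CPM in those of Valcea. The 2 differ in direction, with the first lower and the second higher at Babeni site 2.

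Copper chaperones, which hand copper ions to target proteins and do not fold proteins, matched the words of the rule. Locus_15050_Transcript_3_3_ had 8.19, 8.76 and 11.3 CPM in the Babeni site 2 libraries, 12.8, 13.7 and 17.2 CPM in those of Babeni site 1 and 16.7, 23.9 and 17.5 CPM in those of Valcea. Locus_18128_Transcript_1_2_ had 6.08, 7.64 and 5.78 CPM in the Babeni site 2 libraries, 4.6, 3.82 and 2.58 CPM in those of Babeni site 1 and 9.53, 7.81 and 8.28 CPM in those of Valcea. Their log2 differences between Babeni site 2 and Valcea were -1.0 (SE 0.19) and -0.37 (SE 0.23), and between Babeni site 1 and Valcea -0.39 (SE 0.19) and -1.14 (SE 0.23). The proteasome assembly chaperone of Locus_7269 had a mean of 2.22 CPM at Babeni site 2, 1.32 CPM at Babeni site 1 and 0.752 CPM at Valcea. Of the 13 members without a class, 4 (30.8%) were called lower and 5 (38.5%) higher at Babeni site 2 than at Valcea. Of the described transcripts 32.1% were lower and 27% higher, so the lower share was near theirs. The 5 became 2 without Babeni site 2 replicate 1 and 3 without replicate 3. The 4 became 2 without Babeni site 2 replicate 3 and 2 without Valcea replicate 3.

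Sums were taken over all measured transcripts of a locus, and they depend less than single values on how reads are split among those transcripts. Whether reads shared between transcripts were counted is not given, so the sums may still depend on it. Of the 30 loci with a member called lower at Babeni site 2 than at Valcea, 19 also had a sum called lower, and of the 15 with a member called higher, 10 had a sum called higher. Of the 53 member loci, 20 sums were called lower and 10 higher at Babeni site 2 than at Valcea, where 6.06% and 6.45% of all 36309 loci tested were called. At Babeni site 1 against Valcea 8 were lower and 1 higher, with 5.02% and 4.23% of all loci. Between the Babeni sites 6 were lower and 3 higher at site 2, with 1.61% and 1.82% of all loci. With Valcea replicate 3 left out, the counts were 19 lower and 9 higher at Babeni site 2 and 8 lower and 1 higher at Babeni site 1. The median log2 difference of the 53 sums was -0.81 at Babeni site 2 and -0.48 at Babeni site 1 against Valcea, with -0.08 and -0.04 over the 2933 loci of described transcripts and 0.04 and 0.02 over all loci. Of the loci of described transcripts, 21.9% had a sum called lower and 18% one called higher at Babeni site 2 than at Valcea. At Babeni site 1 against Valcea these shares were 17.5% and 14.5%, and between the Babeni sites 5.63% and 4.43%. The 8 lower and 1 higher of the 53 member loci at Babeni site 1 were both smaller shares than these. The 10 higher of 53 at Babeni site 2 were near the 18% of loci of described transcripts. A sum can also hold transcripts of another description. In Locus_105, whose sum was called lower at Babeni site 2, the HSP70 member made up 13.7% of the CPM. Other transcripts of that locus are described as ascorbate peroxidase.

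The most abundant HSP70 and HSP90 loci had lower sums as well. Locus_1034 summed to 231, 235 and 228 CPM in the Babeni site 2 libraries, 978, 1107 and 1060.4 CPM in those of Babeni site 1 and 1933, 1948 and 1685 CPM in those of Valcea. The 3 sites remained apart, with log2 differences of -3.0 (SE 0.10) at Babeni site 2 and -0.82 (SE 0.10) at Babeni site 1. Locus_1830 had log2 differences of -2.03 (SE 0.13) and -1.39 (SE 0.13) as a sum. Of Locus_2019 and Locus_11518 only 1 transcript each was measured, so that their sums are the member values. For Locus_4449, the HSP90 ATPase activator, the log2 difference of the sum at Babeni site 2 was -0.93 (SE 0.16) and was not called, although its member was called lower. The DnaJ member of Locus_4161 was called lower at Babeni site 2, while the log2 difference of its sum was 0.17 (SE 0.22).

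In 17 loci the members made up less than 50% of the CPM of the locus, and there the sum can differ from the member. Locus_810 is the clearest case: its 4 HSP90 members summed to 19 ± 2.02 CPM at Babeni site 2, 30.9 ± 0.345 CPM at Babeni site 1 and 48.1 ± 3.56 CPM at Valcea. The other 6 transcripts of that locus summed to 402 ± 81.4 CPM at Babeni site 2, 404 ± 46.6 CPM at Babeni site 1 and 338 ± 37.9 CPM at Valcea, and the log2 differences of the whole locus were 0.11 (SE 0.14) at Babeni site 2 and 0.17 (SE 0.14) at Babeni site 1. Among the 101 other transcripts of all member loci, 81 were listed for no site difference, 5 of them in Locus_810. Weaker differences in them therefore follow in part from the choice of members. The HSP70 of Locus_762 made up 1.82% of its locus at Babeni site 2, 2.27% at Babeni site 1 and 2.71% at Valcea. That locus as a whole had 522, 333 and 419 CPM in the Babeni site 2 libraries, 547, 612 and 472 CPM in those of Babeni site 1 and 523, 648 and 600.2 CPM in those of Valcea, and its Babeni site 1 libraries overlapped with those of Valcea, while all Babeni site 2 libraries lay below Valcea. The sum for Locus_3875 was 101, 94.5 and 88.4 CPM in the Babeni site 2 libraries, 109, 109 and 106 CPM in those of Babeni site 1 and 106, 104 and 115 CPM in those of Valcea, with the same overlap at Babeni site 1 and all Babeni site 2 libraries below Valcea. The log2 differences of these sums at Babeni site 2 were -0.49 (SE 0.15) and -0.19 (SE 0.10), neither of them called, in the direction of their members.

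**Figure D4:**
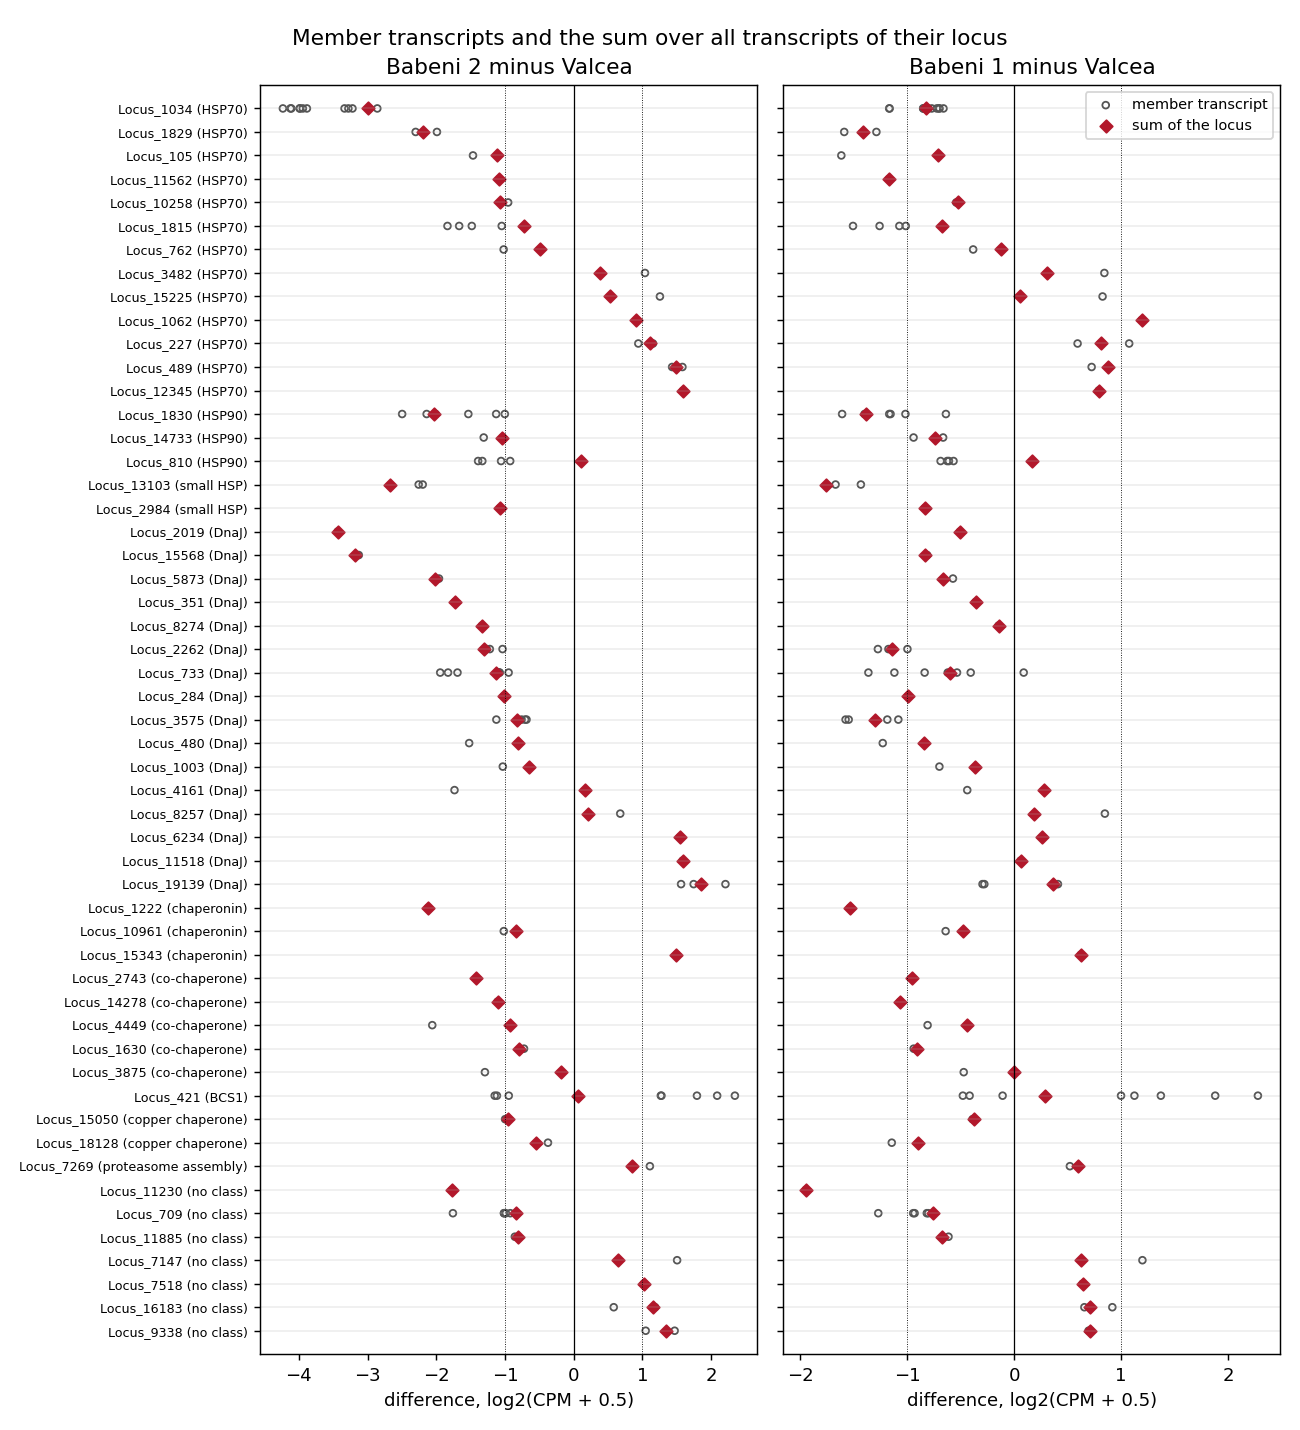
Differences in log2(CPM + 0.5) for every member transcript (open circles) and for the sum of all transcripts of its locus (red diamonds), 53 loci grouped by class, for Babeni site 2 minus Valcea on the left and Babeni site 1 minus Valcea on the right. Dotted lines mark 2-fold. In the left panel all circles and the diamond of Locus_1034 and of Locus_1830 lie left of the line of no difference, with the circles spread. For Locus_810 the circles lie left of that line and the diamond right of it. For Locus_421 circles lie on both sides.

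Neighbouring parts of the protein quality network were read from the same tables by description. These lists, too, hold only transcripts listed for differences between sites. Among 3 heat shock factors, which control heat shock genes, Locus_18464_Transcript_3_4_ had 0.117, 0.876 and 0 CPM in the Babeni site 2 libraries, 1.53, 3.63 and 4.3 CPM in those of Babeni site 1 and 8.74, 9.94 and 5.64 CPM in those of Valcea, and its libraries did not overlap between the 3 sites. It is described as factor b-2b, of class B, which in Arabidopsis includes repressors. Locus_8301_Transcript_2_2_ had 1.05, 0.876 and 1.01 CPM in the Babeni site 2 libraries, 1.53, 1.14 and 1.93 CPM in those of Babeni site 1 and 2.78, 1.66 and 2.26 CPM in those of Valcea. This factor matched the words of the rule and was left out of the members as a transcription factor.

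Most of the listed endoplasmic reticulum transcripts were higher at Babeni site 2, opposite to the cytosolic-type HSP70 and HSP90. Calreticulin, a lectin chaperone of that compartment, summed over 6 transcripts to 762 ± 49.5 CPM at Babeni site 2, 595 ± 22.8 CPM at Babeni site 1 and 304 ± 42.2 CPM at Valcea. The endoplasmin homologs, the HSP90 relatives of that compartment, summed over 3 transcripts to 14.2 ± 2.03 CPM at Babeni site 2, 9.7 ± 0.641 CPM at Babeni site 1 and 6.43 ± 1.1 CPM at Valcea. Among all described transcripts 27% were called higher and 32.1% lower at Babeni site 2 than at Valcea, and 20.7% higher at Babeni site 1. Of the 10 transcripts listed for endoplasmic reticulum quality control, which come from only 5 loci, 6 were called higher and 1 lower at Babeni site 2 than at Valcea, and 2 higher at Babeni site 1. Those 2 became 4 without Valcea replicate 1, and 1 without Valcea replicate 2 or without Babeni site 1 replicate 3. The lower one was derlin, a part of the channel for removal of misfolded proteins, with 5.03, 7.51 and 6.5 CPM in the Babeni site 2 libraries, 8.23, 7.25 and 9.89 CPM in those of Babeni site 1 and 21, 19.9 and 10.7 CPM in those of Valcea.

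Protein disulfide isomerases, which make and shuffle disulfide bonds in new secretory proteins, summed over 13 transcripts to 264 ± 7.1 CPM at Babeni site 2, 165 ± 11.2 CPM at Babeni site 1 and 89.4 ± 3.05 CPM at Valcea. The 3 sites did not overlap. The 8 peptidyl-prolyl isomerases, which turn proline bonds, summed to 52 ± 5.36 CPM at Babeni site 2, 53.6 ± 5.26 CPM at Babeni site 1 and 68.1 ± 6.35 CPM at Valcea. Over all 21 foldases, 13 were called higher and 2 lower at Babeni site 2 than at Valcea, and 4 higher and 3 lower at Babeni site 1. The 2 lower ones became 1 without Babeni site 2 replicate 2 or replicate 3. Among all described transcripts 27% were called higher and 32.1% lower at Babeni site 2, and 20.7% and 24.8% at Babeni site 1.

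The list of proteases of chloroplast and mitochondrion, with Clp, had lower sums at both Babeni sites than at Valcea. FtsH proteases, which degrade damaged membrane proteins of these organelles, summed over 9 transcripts to 568 ± 39.2 CPM at Babeni site 2, 662 ± 59.2 CPM at Babeni site 1 and 1672 ± 133 CPM at Valcea. Of the 22 transcripts on that list, 15 were called lower at Babeni site 2 and 10 at Babeni site 1 than at Valcea. Among all described transcripts these shares were 32.1% and 24.8%. Double Clp-N proteins were matched by the words of their description, which does not make them proteases of these organelles. They had 27.1 ± 1.08 CPM at Babeni site 2, 9.12 ± 0.916 CPM at Babeni site 1 and 16.8 ± 1.69 CPM at Valcea over 5 transcripts, highest at Babeni site 2 and lowest at Babeni site 1. The lists of co-chaperones, ring chaperonins and ubiquitin and proteasome held 2 further transcripts each, and only the ubiquitin and proteasome sums overlapped between Babeni and Valcea. Those sums were 5.97 to 6.63 CPM in Babeni site 2 libraries, 4.73 to 5.15 CPM in those of Babeni site 1 and 4.73 to 7.53 CPM in those of Valcea.

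Of the 105 members, 91 carried Gene Ontology terms in the authors' deposited tables. ATP binding was given for 58 of them, or 63.7%, against 12.6% of described transcripts with terms. Protein folding stood for 37 members, response to heat for 34 and unfolded protein binding for 32. Response to cadmium ion was given for 27 members over 12 loci, or 29.7%, against 5.52% of described transcripts. The terms and the descriptions come from the same deposited annotation, so they are not independent of the choice of members.

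At the threshold, the member nearest to the limit in the authors' deposited table of Babeni site 2 against Valcea had a log2 fold change of -1.0, and the largest false discovery rate of a member there was 0.0386. In the authors' deposited table of Babeni site 1 against Valcea the smallest size was 1.0 with a largest rate of 0.0431, and in that of Babeni site 1 over Babeni site 2, whose direction is opposite to the one used above, 1.0 and 0.00635. Just outside, 79 transcripts of member loci that the tables do not list passed the filter on low values, and their log2 differences reached at most 1.05 in size between Babeni site 2 and Valcea, with a median of -0.19. Of the members, 97 were listed for Babeni site 2 against Valcea, 45 for Babeni site 1 against Valcea and 28 for the Babeni sites, and 6 were listed in all 3 tables.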

How the data were processed

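Stranded TruSeq mRNA libraries were made from total RNA, per the labels' protocols. The submitters' processing notes list edgeR 3.4.2, HTSeq 0.5.3p9, TopHat2 2.0.11 and BWA 0.7.10. Their roles, the genome or transcript build and the annotation are not given in the sources used here. The deposited values are normalised signal in CPM computed by the authors, with library totals of 903669 to 1141740 CPM, so the scaling is not by the library total alone. The authors' deposited tables hold log2 fold changes, p-values and false discovery rates at their limits of 2-fold and 5%, per the file headers. All 9 libraries entered one limma 3.58.1 fit (R 4.3.3) with a mean trend on log2(CPM + 0.5), over transcripts with at least 1 CPM in at least 3 libraries. The plan was written for normalised values and was kept. Fold changes on this scale understate those of low transcripts.

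Every value was a whole multiple of what 1 read is worth, to within 0.01 reads for 100% of values, so edgeR 4.0.16 and DESeq2 1.42.0 were run on the recovered reads as alternatives. For Babeni site 2 against Valcea, Babeni site 1 against Valcea and Babeni site 2 against Babeni site 1, limma called 6861, 5151 and 1805 transcripts, edgeR 7507, 4954 and 2191 and DESeq2 5333, 3326 and 1486. The fits were tested on simulated data. All 105 members passed the filter. Members were chosen, and lists and tests written, with earlier results of these data known. Class followed the description, or the locus where the description gave none. The drop of transcription factors removed 1 heat shock factor, and 8 transcripts that match only in their Gene Ontology terms are no members. Named with every library were, per locus, the most abundant member with a mean of at least 5 CPM at a site, and per comparison the 5 largest increases and decreases among members at that level whose libraries did not overlap, 53 in all. Members named only in passing fall outside that rule. Sequences were not analysed here. Algal samples of the series were not analysed here.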

Additional observations from a re-analysis of the deposited data

How the results depend on the processing

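Counts of called members are given as Babeni site 2 against Valcea, Babeni site 1 against Valcea and Babeni site 2 against Babeni site 1. With locus sums the counts of lower loci were 20, 8 and 6 and those of higher loci 10, 1 and 3, over 53 loci in place of 105 transcripts, and without Valcea library 3 the sums gave 19 and 8 lower and 9 and 1 higher against Valcea, a setting added after seeing the data. A filter of 5 CPM, which leaves fewer members to test, gave 19 lower and 3 higher at Babeni site 1 than at Valcea, 13 higher at Babeni site 2 than at Valcea and 3 higher than at Babeni site 1. A pseudocount of 2, which shrinks the folds of low transcripts, gave 15 lower and 3 higher at Babeni site 1 and 12 higher at Babeni site 2 than at Valcea. DESeq2 gave 15 higher at Babeni site 2 than at Valcea, and the cause was not tested. Other settings moved these counts by at most 1.5 times, in 81 of 100 cases. Leaving out 1 library gave 54 to 61 lower and 16 to 23 higher at Babeni site 2 than at Valcea, 24 to 29 lower and 4 to 7 higher at Babeni site 1 than at Valcea, and 17 to 22 lower and 5 to 9 higher between the Babeni sites, the 9 without Babeni site 1 replicate 2. Among 159 differences of named members, no alternative turned a called direction, 20 lost a call and 12 gained one under some setting. Replicate numbers did not pair the samples, with correlations of deviations of -0.156 to 0.0577 for the same number and -0.120 to 0.169 otherwise, and a replicate block gave 62 lower and 22 higher, 30 and 4, and 19 and 5. Libraries of 2875062 to 7824727 reads limit members under about 1 CPM.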
